A study of Mus musculus with 39 samples.

Results

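The 10 genes described here (Fbxo32, Trim63, Fbxo30, Fbxo31, Mstn, Klf15, Ddit4, Eif4ebp1, Bnip3 and Cblb) are genes tied to glucocorticoid-induced muscle wasting, looked up by symbol among the 46078 genes of the count tables. All 10 were found. They were followed first in quadriceps muscle of E47KO and wildtype mice after 3 weeks of dexamethasone (Dex), and then against liver and epididymal white adipose tissue (WAT) after the same treatment. E47KO mice lack E47, 1 of the splice forms of the E2A transcription factor gene Tcf3, in all tissues, and the wildtype mice were their littermates. All were C57BL/6 males of 10 to 16 weeks, and in these experiments every mouse, controls included, drank water with 10 µg/ml Dex for 3 weeks and was killed after a glucose tolerance test. Muscle had 3 E47KO and 2 wildtype libraries, liver 3 and 2, and WAT 2 and 2. A further 3 liver experiments carry the same genes: 3 weeks of corticosterone (Cort, 100 µg/ml in the water, 4 E47KO and 4 wildtype), 1 hour after an injection of 1 mg/kg Dex (3 AlbCreE47KO, which lose E47 where the albumin promoter drives Cre, chiefly in hepatocytes, and 3 floxed controls without Cre), and untreated mice (6 E47KO and 5 wildtype). No muscle or WAT without Dex was analysed here, so the values below are levels under Dex and differences between genotypes or tissues, and not an effect of Dex.

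Muscle mass falls when protein breakdown outpaces synthesis, and glucocorticoids push the balance toward breakdown. Fbxo32 (atrogin-1) and Trim63 (MuRF1) encode the muscle ubiquitin ligases that mark proteins for the proteasome and serve as the standard markers of atrophy. Glucocorticoids also raise KLF15, a transcription factor, and REDD1, the mTORC1 inhibitor encoded by Ddit4, while FoxO factors switch on the ligases when insulin and IGF1 signalling through Akt is low.

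RNA was sequenced and counted per gene. Gene counts, in units of 1000000, came to 40.4 to 46.0 per muscle library, 34.5 to 43.0 per WAT library and 17.5 to 21.4 per Dex liver library. Levels are given as counts per 1000000 (CPM) on library sizes scaled by the trimmed mean of M-values (TMM), and differences as log2 fold changes ± standard error (SE). "Called" means an adjusted p below 0.05 after Benjamini-Hochberg correction over all genes tested in edgeR's quasi-likelihood test. The 14 skeletal muscle markers summed to between 232160 and 326570 CPM in the muscle libraries, against at most 43.7 CPM in liver and 86.6 CPM in WAT, so the tissue labels held. Tcf3, the targeted gene, read 12.5 ± 1.97 CPM (SD, n = 3) in E47KO muscle and 11.5 ± 1.81 CPM (SD, n = 2) in wildtype muscle. These counts add E47 to its sister splice form E12, so they give no check of the genotype.

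The muscle libraries differed in other cells' genes. The summed level of 10 adipocyte markers was 1085 and 1098 CPM in the wildtype muscles and 1436 to 2142 CPM in the E47KO muscles, with no overlap and 10 of 10 markers higher. Their median log2 fold change, E47KO over wildtype, was 2.09, larger than the sums show, since a sum weighs the most abundant markers most. None of the 10 was called, and 15.9% of all genes did not overlap between the genotypes. All markers of macrophages (8), fibroblasts (6), endothelium (5) and erythroid cells (5) were also positive, none called, with sums that overlapped. E47KO replicate 2 had the highest of each of these sums (146, 685, 277 and 276 CPM in that order). Its adipocyte sum, 1436 CPM, was the lowest of the E47KO muscles. Skeletal muscle markers had 4 positive and 10 negative. The sum of 12 hepatocyte markers was 281 CPM in wildtype replicate 2, 20.1 CPM in E47KO replicate 3 and at most 2.61 CPM in the other libraries. Slow fibre markers (7 genes) ranged from 71.4 to 1332 CPM. The animal numbers carried by the deposited tables fall into 2 ranges, 1 with E47KO replicates 1 and 2 and wildtype replicate 1, and 1 with E47KO replicate 3 and wildtype replicate 2. Slow fibre markers were at 920 CPM or more in the former and at 179 CPM or less in the latter. The part of these differences in the values below was not tested.

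Promoter sequence is shown for Trim63 and Mstn, the members with at most 22 counts in any library outside muscle, in GRCm38 coordinates from RefSeq. The Trim63 gene lies on chromosome 4 (chr4:134315120-134329629, plus strand) and Mstn on chromosome 1 (chr1:53061640-53068079, plus strand). The 250 bases before each start follow, 5′ to 3′ on the gene's strand (chr4:134314870-134315119 and chr1:53061390-53061639). Capitals mark E-boxes (CANNTG, the kind of site that E2A proteins bind), the glucocorticoid receptor half-site AGAACA or its reverse complement TGTTCT, and the FoxO motif GTAAACA or its reverse complement TGTTTAC.
Trim63: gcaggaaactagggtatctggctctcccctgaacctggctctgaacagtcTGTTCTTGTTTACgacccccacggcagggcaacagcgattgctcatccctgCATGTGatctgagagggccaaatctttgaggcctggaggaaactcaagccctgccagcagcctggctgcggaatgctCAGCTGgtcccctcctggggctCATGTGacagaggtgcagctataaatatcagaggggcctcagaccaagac
Mstn: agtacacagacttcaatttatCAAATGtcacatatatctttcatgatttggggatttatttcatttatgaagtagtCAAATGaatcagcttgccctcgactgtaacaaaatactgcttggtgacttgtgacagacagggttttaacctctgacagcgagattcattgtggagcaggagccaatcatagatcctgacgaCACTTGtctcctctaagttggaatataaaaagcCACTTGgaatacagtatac
In Trim63 the receptor half-site starts at -200 from the gene start and the FoxO motif abuts it at -194, both read on the opposite strand. The letters directly before the half-site read tgaacagtc, where tgaaca differs from AGAACA only in its opening letter. Only exact runs were searched, so imperfect or paired sites were not marked and are not covered by the shares below. After the FoxO motif 3 E-boxes follow. Mstn holds 4 E-boxes and neither other motif. Among 32851 RefSeq promoter windows of the same length, 66.2% hold an E-box, 16.1% the half-site and 3.17% the FoxO motif on either strand. RefSeq promoters were matched for 8 of the 10 genes. Of these, 5 hold an E-box, and Trim63 is the 1 with a half-site and the 1 with a FoxO motif. A match is a run of letters and not a measured binding site.

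No member was called between genotypes in Dex muscle. The test called 0 of 10 members, where 0.0134% of the 14962 genes tested were called, and 0 of 10 had an unadjusted p below 0.05, where 3.94% of all genes did. With DESeq2 the count was also 0, with 1 member (Mstn) below an unadjusted p of 0.05. In edgeR 1 member was also below it without the filter on low counts, with replicate numbers as a block and with the number range as a term. The same held without E47KO replicate 2 and without E47KO replicate 3. With other size factors, in the joint fit and without E47KO replicate 1 it was 0 members. The ranges of the genotypes overlapped for all 10 members, while they did not overlap for 15.9% of all genes. The median log2 fold change, E47KO over wildtype, was -0.08 over the members and 0.02 over all genes, with 4 members positive and 6 negative.

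**Figure D1:**
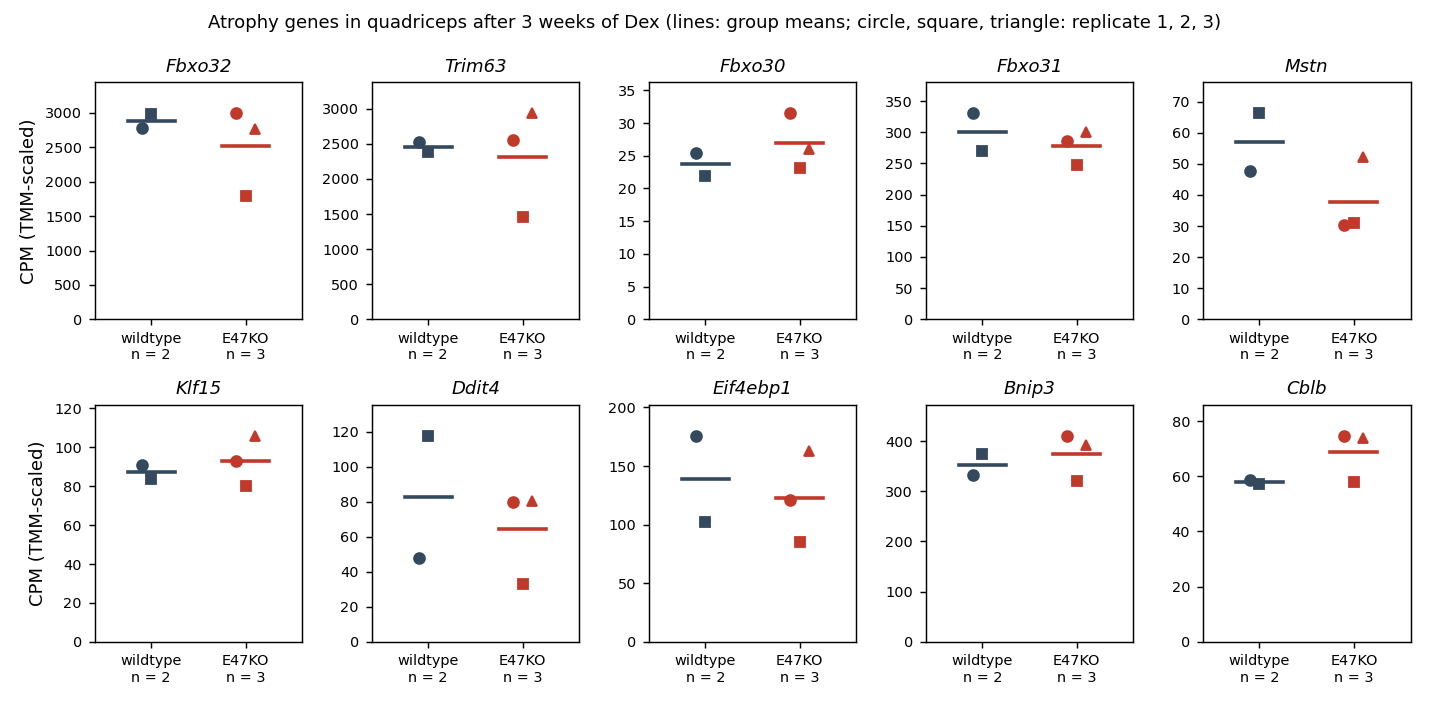
CPM of each gene in the 5 quadriceps libraries after 3 weeks of Dex, by genotype (points: libraries; lines: group means; y axes start at 0). Both genotypes overlap in every panel. E47KO replicate 2 (square) is the lowest library for Fbxo32 (1793 CPM) and Trim63 (1454 CPM). The same library is lowest for Fbxo31, Klf15, Ddit4, Eif4ebp1 and Bnip3, but not for Fbxo30, Mstn or Cblb.

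The ubiquitin ligases stood high in every muscle. Fbxo32 measured 2994, 1793 and 2771 CPM in E47KO replicates 1 to 3, and 2783 and 2979 CPM in wildtype replicates 1 and 2. All muscles but 1 thus lay close together, with E47KO replicate 2 below them. That library was also the lowest for Trim63, Fbxo31, Klf15, Ddit4, Eif4ebp1 and Bnip3, but not for Fbxo30, Mstn or Cblb. The Fbxo32 log2 difference was -0.17 ± 0.23 (95% confidence interval, CI, -0.72 to 0.37, edgeR adjusted p = 0.9996). It was 0.02 without E47KO replicate 2. Fbxo32 shares exon positions with an antisense gene, Gm15943, which these unstranded libraries cannot tell apart from it.

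Trim63 showed the same layout, with 2552, 1454 and 2936 CPM in the E47KO muscles and 2532 and 2384 CPM in the wildtype muscles. The E47KO muscles held both the highest and the lowest value. The log2 difference was -0.07 ± 0.28 (95% CI -0.75 to 0.60; edgeR adjusted p = 0.9996), and it turned to 0.17 without E47KO replicate 2 and to 0.00 without wildtype replicate 1. The 2 intervals reach 0.37 and 0.60 above 0 and -0.72 and -0.75 below it, so these 5 libraries leave room for changes of that size.

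The other ligases of the group were lower and steadier. Fbxo30 (MUSA1, an F-box protein that acts in denervation atrophy) read 31.5, 23.1 and 26.1 CPM in E47KO and 25.5 and 21.9 CPM in wildtype muscle, a log2 difference of 0.20 ± 0.17. Fbxo31, another F-box protein of ubiquitin ligase complexes, read 286, 247 and 301 CPM against 330.4 and 269 CPM, a difference of -0.09 ± 0.15 that became 0.09 without wildtype replicate 1. Cblb, the RING ligase that acts on IRS1 in unloaded muscle, came nearest to separating. It read 74.7, 58.0 and 73.8 CPM in E47KO and 58.8 and 57.3 CPM in wildtype muscle, so that 2 E47KO muscles lay above both wildtype muscles and the third between them. Its log2 difference was 0.26 ± 0.14 (95% CI -0.08 to 0.61; edgeR unadjusted p = 0.113, adjusted p = 0.9996).

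Mstn, which encodes myostatin, the secreted brake on muscle growth, had the smallest p of the group. Its levels were 30.2, 30.9 and 52.1 CPM in the E47KO muscles and 47.7 and 66.3 CPM in the wildtype muscles. E47KO replicate 3 lay above wildtype replicate 1, so the genotypes overlapped. The log2 difference was -0.58 ± 0.25 (95% CI -1.18 to 0.03; edgeR unadjusted p = 0.0583, adjusted p = 0.9996), negative without each library in turn (-0.86 to -0.36). It was -0.86 without E47KO replicate 3 and -0.36 without wildtype replicate 2, and neither was called. Within the first range of animal numbers the E47KO muscles read 30.2 and 30.9 CPM against 47.7 CPM in the wildtype muscle, and within the second 52.1 against 66.3 CPM. Each range holds only 1 wildtype muscle, so no conclusion is drawn from the shared direction. With the number range as a term the difference was -0.51 (edgeR adjusted p = 0.562).

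Ddit4 varied most of the members between mice. It read 80.2, 32.8 and 80.2 CPM in E47KO and 47.8 and 118 CPM in wildtype muscle, a 3.59-fold range over 5 mice on the same treatment. Its log2 difference of -0.33 ± 0.48 (95% CI -1.48 to 0.81) ran from -0.82 without wildtype replicate 1 to 0.41 without wildtype replicate 2, so either wildtype mouse set its direction. Eif4ebp1, which encodes the translation repressor 4E-BP1 downstream of mTORC1, read 121, 85.3 and 163 CPM against 176 and 102 CPM. Its difference of -0.17 ± 0.32 likewise ran from -0.54 without wildtype replicate 2 to 0.31 without wildtype replicate 1. Within the first range of animal numbers E47KO was lower than wildtype for Eif4ebp1, and within the second it was higher.

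Klf15 and Bnip3 were steady across the same 5 muscles. Klf15 read 92.7, 80.1 and 106 CPM in E47KO and 90.8 and 83.8 CPM in wildtype muscle, a log2 difference of 0.11 ± 0.14 (95% CI -0.23 to 0.44). Bnip3, which encodes a mitophagy receptor, read 411, 320.3 and 393 CPM against 332 and 374 CPM, a difference of 0.11 ± 0.14. It shares exon positions with the antisense gene Gm45507, which cannot be told apart from it here.

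Compared per length, as CPM per kilobase of exon (RPKM), the 2 classical ligases led the group by a wide margin. Mean levels in Dex muscle were 834 ± 194 RPKM for Trim63 and 381.9 ± 71.4 RPKM for Fbxo32 (SD, n = 5), ranks 41 and 76 among 45229 genes with an exon length. Bnip3 followed at 162 ± 17.2 RPKM. The middle of the order was Eif4ebp1 at 58.9 ± 17.7, Fbxo31 at 52.3 ± 5.74, Ddit4 at 40.9 ± 18.8 and Klf15 at 32.5 ± 3.58 RPKM, neighbours whose means ± SD overlap. Mstn stood at 16.8 ± 5.62, Cblb at 6.16 ± 0.85 and Fbxo30 at 4.93 ± 0.71 RPKM. The message of the myostatin ligand was thus low next to those of Trim63 and Fbxo32, and the last 2 genes overlapped within their SD.

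None of 8 pathway lists, which leave the members out, held a called gene between genotypes in Dex muscle. Of 25 further ubiquitin-proteasome genes of atrophy, 4 had a positive and 21 a negative log2 fold change (median -0.13, against 0.02 over all genes). In edgeR 2 had an unadjusted p below 0.05, where 3.94% of all genes did. Fbxo21 (SMART, an F-box gene of atrophy) had the smallest p, at 30.1 ± 2.63 CPM in E47KO and 23.3 ± 1.39 CPM in wildtype muscle (log2 0.38 ± 0.11, edgeR adjusted p = 0.914). Of 24 autophagy-lysosome genes, 5 were positive and 19 negative (median -0.08), with the lysosomal protease gene Ctsb at the smallest p (0.25 ± 0.10).

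The branched-chain amino acid breakdown genes, part of the programme that KLF15 is known to drive, had mostly positive differences, none of them called. Of 15, 14 were positive and 1 negative (median 0.31), and 3 had an unadjusted p below 0.05 in edgeR, where 3.94% of all genes did. Mccc2, a subunit of the leucine pathway's carboxylase, read 27.5 ± 0.998 CPM in E47KO and 22.0 ± 1.57 CPM in wildtype muscle (0.34 ± 0.11, edgeR adjusted p = 0.9996). The summed adipocyte markers were higher in the same E47KO libraries, and their part here was not tested.

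Of 22 classical glucocorticoid receptor targets, 12 were positive and 10 negative (median 0.12), and 4 had an unadjusted p below 0.05 in edgeR, where 3.94% of all genes did. Hsd11b1, whose enzyme regenerates active glucocorticoid inside cells, read 18.9 ± 6.58 CPM in E47KO and 5.91 ± 2.80 CPM in wildtype muscle (1.70 ± 0.36, edgeR adjusted p = 0.594). Its mean was 476 CPM in WAT and 624 CPM in liver, far above either muscle group. In the remaining lists, 4 of 8 FoxO factors and regulators, 7 of 18 tested myostatin-activin-Smad genes, 11 of 25 IGF1-Akt-mTOR genes and 10 of 17 tested denervation and myogenic regulators were positive. The smallest p of each belonged to Gadd45a (-0.33 ± 0.16), Fst, the follistatin gene (0.46 ± 0.24), Gsk3b (-0.39 ± 0.13) and Myf5 (0.66 ± 0.25), with edgeR adjusted p = 0.9996 for all 4.

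In Dex WAT and Dex liver the members were not called either. In liver, 0 of 8 tested members were called (background 0.00752%; 0 of 8 had an unadjusted p below 0.05 in edgeR and in DESeq2), and in WAT 0 of 8 (background 0.0%). Trim63 and Mstn did not pass the filter on low counts in either tissue. In WAT 3 members had an unadjusted p below 0.05, in edgeR and in DESeq2, where 4.29% of all genes did in edgeR. In 4 of 8 the E47KO range lay below the wildtype range, where 32.9% of all genes did not overlap in either direction, as 2 libraries against 2 separate easily.

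Ddit4 had the largest of these differences. In WAT it read 58.7 and 97.9 CPM in E47KO replicates 2 and 3 and 158 and 146 CPM in wildtype replicates 1 and 2, so that both E47KO libraries were below both wildtype libraries. The log2 difference was -0.97 ± 0.26 (95% CI -1.64 to -0.31; edgeR unadjusted p = 0.0129, adjusted p = 0.9775). In liver it read 53.6, 43.6 and 5.43 CPM in E47KO and 58.2 and 131 CPM in wildtype replicates 1 and 2. All 3 E47KO livers lay below both wildtype livers, as for no other member there (1 of 8, where 14.9% of all genes did not overlap in either direction), and E47KO replicate 3 stood at 5.43 CPM where the next lowest liver had 43.6 CPM. The liver difference was -1.46 ± 0.80 (95% CI -3.37 to 0.44; edgeR adjusted p = 0.9993), and it was -0.76 without the E47KO library of replicate 3.

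Fbxo31 and Klf15 followed in WAT. Fbxo31 read 53.0 and 68.3 CPM in E47KO and 77.9 and 84.6 CPM in wildtype WAT (-0.44 ± 0.15, unadjusted p = 0.0345), and Klf15 read 18.9 and 25.9 against 31.0 and 29.2 CPM (-0.44 ± 0.17, unadjusted p = 0.0498), both with edgeR adjusted p = 0.9775. E47KO replicate 2 was the lowest WAT library for Ddit4, Fbxo31 and Klf15. Without E47KO replicate 3, which leaves that library alone against the wildtype, Ddit4 (-1.40, adjusted p = 0.00643) and Klf15 (-0.69, adjusted p = 0.0361) were called by edgeR, where 1.98% of all genes were. The spread in that fit comes from the wildtype libraries alone, and the lone E47KO library is assumed to vary like them. Without E47KO replicate 2 the differences were -0.65 for Ddit4, -0.26 for Fbxo31 and -0.23 for Klf15, none called. Cblb, whose estimate was positive in muscle, read 30.6 and 32.9 CPM in E47KO WAT against 39.8 and 35.7 CPM (-0.27 ± 0.11, adjusted p = 0.9775 in edgeR).

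**Figure D2:**
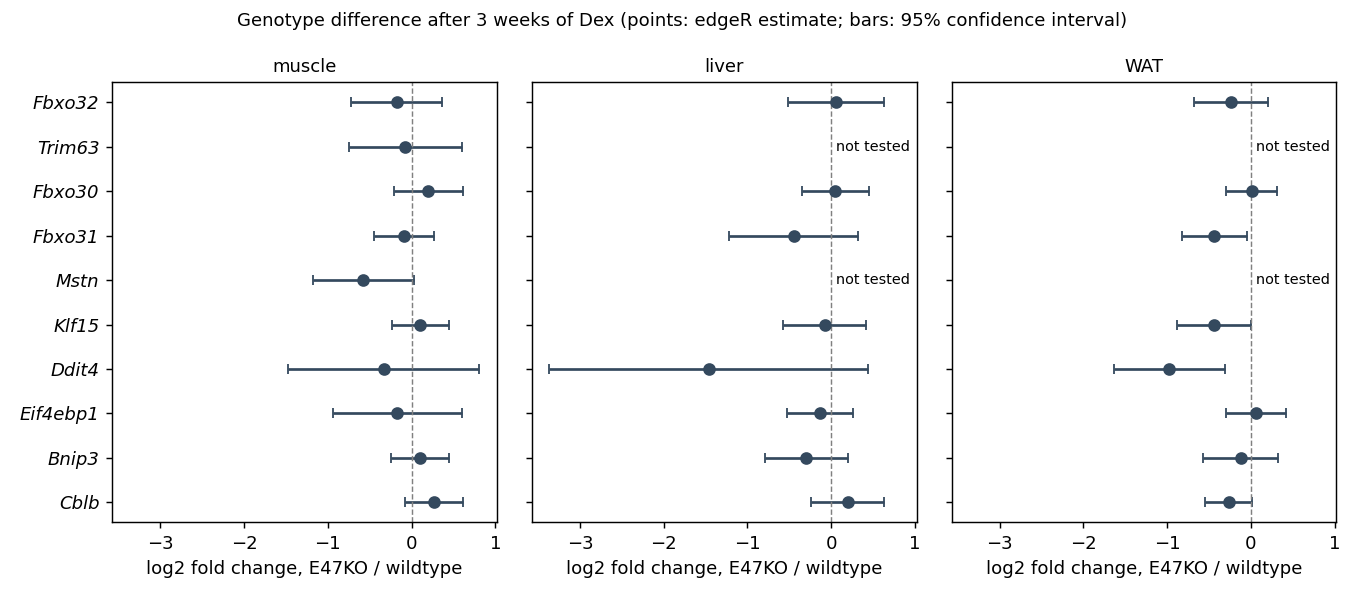
Log2 fold change of each gene, E47KO over wildtype, in muscle, liver and WAT after 3 weeks of Dex (points: edgeR estimates; bars: 95% CI; dashed line: no difference). All muscle intervals cross 0, the Ddit4 intervals are the widest in muscle and liver, and in WAT Ddit4, Fbxo31 and Klf15 lie below 0.

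The genotype effect in muscle was then tested directly against that in the other tissues. The difference of effects was called for 0 of 8 members against liver (background 0.0%; 0 at an unadjusted p below 0.05 in edgeR and DESeq2) and for 0 of 8 against WAT (background 0.011%; 0 in edgeR and 1 in DESeq2 at an unadjusted p below 0.05). Trim63 and Mstn are left out of these counts, since they passed the joint filter only through their muscle counts. Klf15 differed by 0.52 ± 0.29 and Cblb by 0.50 ± 0.23 on the log2 scale between muscle and WAT, with an unadjusted p of 0.0988 and 0.0517 in edgeR's quasi-likelihood test. The differences in WAT above are therefore not shown to be particular to WAT.

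Between tissues the members fell into separate kinds. Of the 10 members, 7 were called between Dex muscle and Dex liver, 6 higher in muscle (background 40.4% of 18113 genes) and 1 lower (background 36.0%). Between muscle and WAT 9 were called, 7 higher in muscle (background 33.8%) and 2 lower (background 43.5%). The median log2 difference, muscle over the other tissue, was 1.02 over the members against 0.11 over all genes for liver, and 1.33 against -0.25 for WAT. Trim63 and Mstn are among the members called higher in both comparisons and enter both medians. They passed the joint filter only through their muscle counts, so their calls were fixed in advance and are no result about the members. Scaling mattered for WAT, where plain library totals moved the median of all genes to -1.05 and the calls to 3483 higher and 11334 lower in muscle. Under those totals 5 members were called higher and 3 lower. By the animal numbers, 3 mice gave both muscle and liver, and the joint fit treated libraries of the same mouse as independent. These are bulk tissues, in which fewer cells of a type and less RNA per cell cannot be told apart.

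**Figure D3:**
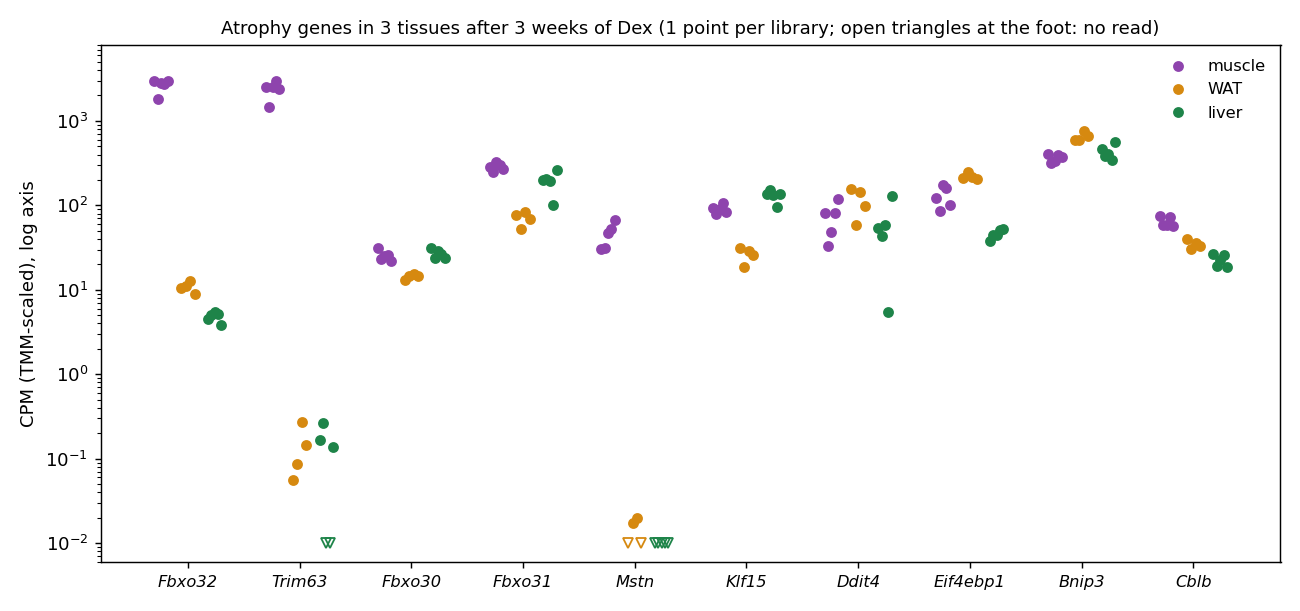
CPM of each gene (log axis) in every library of muscle (5), WAT (4) and liver (5) after 3 weeks of Dex, both genotypes together (points: libraries; open triangles at the foot: libraries with no read). Fbxo32, Trim63 and Mstn are set apart in muscle, while Fbxo30, Ddit4 and Bnip3 overlap between muscle and liver.

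Fbxo32, Trim63 and Mstn were muscle genes. Fbxo32 averaged 2664 ± 498 CPM in muscle (SD, n = 5), 10.9 ± 1.67 CPM in WAT (n = 4) and 4.80 ± 0.64 CPM in liver (n = 5), a mean 555-fold above liver and 245-fold above WAT. Every liver still held 56 to 96 Fbxo32 counts, so it was low there and not absent. The log2 difference was 9.14 ± 0.27 against liver and 7.96 ± 0.27 against WAT (edgeR adjusted p = 2.5e-11 and 9.8e-11).

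Trim63 was tighter still. It had 3, 5 and 0 counts in the E47KO livers, 0 and 2 in the wildtype livers, and 3 to 14 counts in each WAT library, against 57033 to 110850 counts in each muscle. On the pooled counts this is a ratio of 20122 over liver (95% exact Poisson interval of the liver count, 10942 to 41962) and 17155 over WAT (12086 to 25248), intervals that cover counting error only. The WAT libraries also held 35.9 to 86.6 CPM over the 14 muscle markers, and the Dex livers 13.2 to 43.7 CPM. Whether the Trim63 reads of either tissue came with these was not tested.

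Mstn had no read in any of the 5 Dex livers and 1 read in each of 2 WAT libraries. Against a floor of 3 counts per library, its mean of 45.5 CPM in muscle was at least 255-fold higher than in liver. Over WAT the ratio was 5096 with a counting interval of 1411 to 42083. Fitted log2 values for such genes depend on the prior count and are not quoted.

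Cblb was a muscle-enriched gene that every tissue expressed. It averaged 64.5 ± 8.92 CPM in muscle, 34.7 ± 3.95 CPM in WAT and 22.5 ± 3.48 CPM in liver, and no 2 tissues' ranges overlapped. The log2 difference was 1.51 ± 0.11 against liver and 0.87 ± 0.12 against WAT, but 0.06 against WAT with plain library totals, where it was no longer called.

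Fbxo31 and Klf15 set muscle and liver apart from WAT. Fbxo31 averaged 287 ± 31.5 CPM in muscle, 193 ± 58.7 CPM in liver and 71.0 ± 13.7 CPM in WAT. Its difference from WAT was 2.04 ± 0.21, and its difference from liver, 0.55 ± 0.19 (edgeR adjusted p = 0.0179), was lost without wildtype liver replicate 1 (0.46, adjusted p = 0.0775) or wildtype muscle replicate 1 (0.49, adjusted p = 0.061). Klf15 averaged 90.7 ± 10.0 CPM in muscle, 130.2 ± 20.9 CPM in liver and 26.2 ± 5.34 CPM in WAT. It was the 1 member called lower in muscle than in liver (-0.54 ± 0.14, adjusted p = 0.00319), and it was 1.79 ± 0.15 higher than in WAT.

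Eif4ebp1 and Bnip3 were highest in fat. Eif4ebp1 averaged 220.4 ± 19.9 CPM in WAT, 129 ± 38.9 CPM in muscle and 46.6 ± 6.00 CPM in liver, and the ranges of the 3 tissues did not overlap. On the log2 scale muscle differed by -0.75 ± 0.20 from WAT and by 1.48 ± 0.19 from liver, and the WAT call was lost in wildtype libraries alone (-0.63, adjusted p = 0.0756). Bnip3 averaged 656 ± 77.5 CPM in WAT, 433 ± 85.9 CPM in liver and 366 ± 38.9 CPM in muscle. Muscle differed from WAT by -0.85 ± 0.15, and muscle and liver overlapped (-0.27 ± 0.15, edgeR adjusted p = 0.109, 95% CI -0.59 to 0.05).

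Fbxo30 and Ddit4 did not single out muscle. Fbxo30 averaged 25.6 ± 3.70 CPM in muscle, 27.0 ± 3.35 CPM in liver and 14.3 ± 0.99 CPM in WAT. It was 0.82 ± 0.12 above WAT, a difference of 0.02 with plain totals, and its muscle to liver difference was -0.09 with a CI of -0.35 to 0.16. Ddit4 averaged 71.8 ± 33.0 CPM in muscle, 115 ± 45.8 CPM in WAT and 58.3 ± 45.5 CPM in liver, and its ranges overlapped in all 3 tissues. It was not called in either comparison (0.36 ± 0.50 and -0.58 ± 0.52), while with plain totals it was called lower in muscle than in WAT (-1.41, adjusted p = 0.024).

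The pathway lists were counted in the same 2 comparisons. Over all genes, 40.4% were called higher and 36.0% lower in muscle than in liver, and 33.8% and 43.5% against WAT. The list counts here and in the next paragraphs are to be read beside these shares. The lists were not recounted with plain library totals. Of the 25 further ubiquitin-proteasome genes, 19 were called higher and 2 lower in muscle than in liver, and 20 higher and 1 lower than in WAT (medians 0.89 and 1.08). Its 2 most abundant genes in muscle were Ube2b, a ubiquitin-conjugating enzyme, at 710.2 ± 51.5 CPM in muscle and 121 ± 7.84 CPM in liver, and Zfand5, at 706 ± 102 and 105 ± 7.96 CPM. The FoxO list had 7 of 8 genes called higher than in WAT and 3 higher and 2 lower than in liver. Its top genes were Foxo4 (225 ± 22.6 CPM in muscle, 33.0 ± 2.98 CPM in liver) and Sgk1.

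The signalling lists were mixed. Of 25 IGF1-Akt-mTOR genes, 14 were called higher and 4 lower than in liver, and 19 higher and 4 lower than in WAT. Akt2 was the most abundant, at 380.4 ± 46.4 CPM in muscle, 97.2 ± 4.998 CPM in liver and 126 ± 13.2 CPM in WAT, while Insr did not differ from liver in the test (-0.01 ± 0.13, CI -0.28 to 0.27). Of 21 myostatin-activin-Smad genes, 9 were called higher and 7 lower than in liver, and 10 and 7 against WAT. Smad3, which carries the myostatin signal, read 144 ± 27.2 CPM in muscle and 9.46 ± 1.38 CPM in liver, and Dcn, a matrix gene, differed by 1.06 ± 0.13 from liver and by -0.67 ± 0.14 from WAT.

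Of 24 autophagy-lysosome genes, 10 were called higher and 11 lower in muscle than in liver (40.4% and 36.0% of all genes). Against WAT the counts were also 10 and 11 (33.8% and 43.5% of all genes). Sqstm1 was higher in muscle than in both (0.63 ± 0.16 and 1.75 ± 0.17), and Ctsd was higher than in liver (1.08 ± 0.14) and lower than in WAT (-0.64 ± 0.15). Of the branched-chain amino acid breakdown list, 10 of 15 genes were called lower in muscle than in liver (36.0% of all genes). Against WAT 9 of 15 were (43.5% of all genes). Gpt2 and Dld were its most abundant genes in muscle, and Dld was 1.01 ± 0.09 above liver.

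The 22 classical glucocorticoid receptor targets had 7 genes called higher and 9 lower in muscle than in liver (40.4% and 36.0% of all genes). Against WAT 6 were higher and 11 lower (33.8% and 43.5% of all genes). Pdk4, which restrains glucose oxidation, was the most abundant in muscle at 3839 ± 906 CPM, with 64.6 ± 15.6 CPM in liver and 646 ± 172 CPM in WAT. Lpin1 followed at 1491 ± 265 CPM. All 17 tested denervation and myogenic regulators were called higher than in liver (40.4% of all genes) and 16 of 17 higher than in WAT (33.8%). Myf6 (65.3 ± 12.9 CPM) and Hdac4 (61.4 ± 8.42 CPM) were the most abundant. Myf6 averaged 0.01 CPM in liver and 0.008 CPM in WAT, so it passed the joint filter through muscle alone and its call was fixed in advance. How many others of the list are like it was not counted, and the list counts are no result about the list.

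The genes whose levels moved most like Fbxo32 across the 14 Dex libraries, once each tissue's mean was taken out, were Tubb4b-ps2 (Pearson r 0.86), Ube4b (0.86), which encodes a ubiquitin chain elongation factor, and Rmi1 (0.84). For Trim63 they were Kdm4b (0.84), Tmem189 (0.83) and Ampd1 (0.81), the muscle AMP deaminase gene. These are the top of 14961 genes over 14 libraries that share depth and scaling, and Trim63 varied by counting noise in liver and WAT, so the values are a description with no test. Ampd1 also had libraries with no count, and Tubb4b-ps2 had as few as 2 counts in a library. By ranks (Spearman rho) Tubb4b-ps2 stood at 0.67, below Ube4b at 0.75 and Rmi1 at 0.84.

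The other liver experiments carry labels of stranded libraries and were scaled each on their own, so their levels are set beside the Dex livers without a comparison. The strand column held 96.9 to 97.7% of the strand-resolved counts in the 1 h and untreated livers but 50.1% in the Cort livers, an even split that goes against the label of the latter. Trim63 and Mstn had no read in the 6 livers 1 hour after Dex, and reached at most 22 and 8 counts in untreated livers and 17 and 3 counts after Cort. Ddit4 ranged from 111.2 to 196 CPM 1 hour after Dex, from 5.43 to 131 CPM after 3 weeks of Dex, from 6.70 to 38.2 CPM after 3 weeks of Cort and from 2.61 to 18.9 CPM in untreated livers. Klf15 ranged from 212 to 283, 95.6 to 152, 85.7 to 230 and 98.3 to 257 CPM in the same order. The highest Ddit4 level was 24.1-fold the lowest in Dex livers, 5.70-fold after Cort, 7.24-fold in untreated livers and 1.76-fold at 1 hour.

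**Figure D4:**
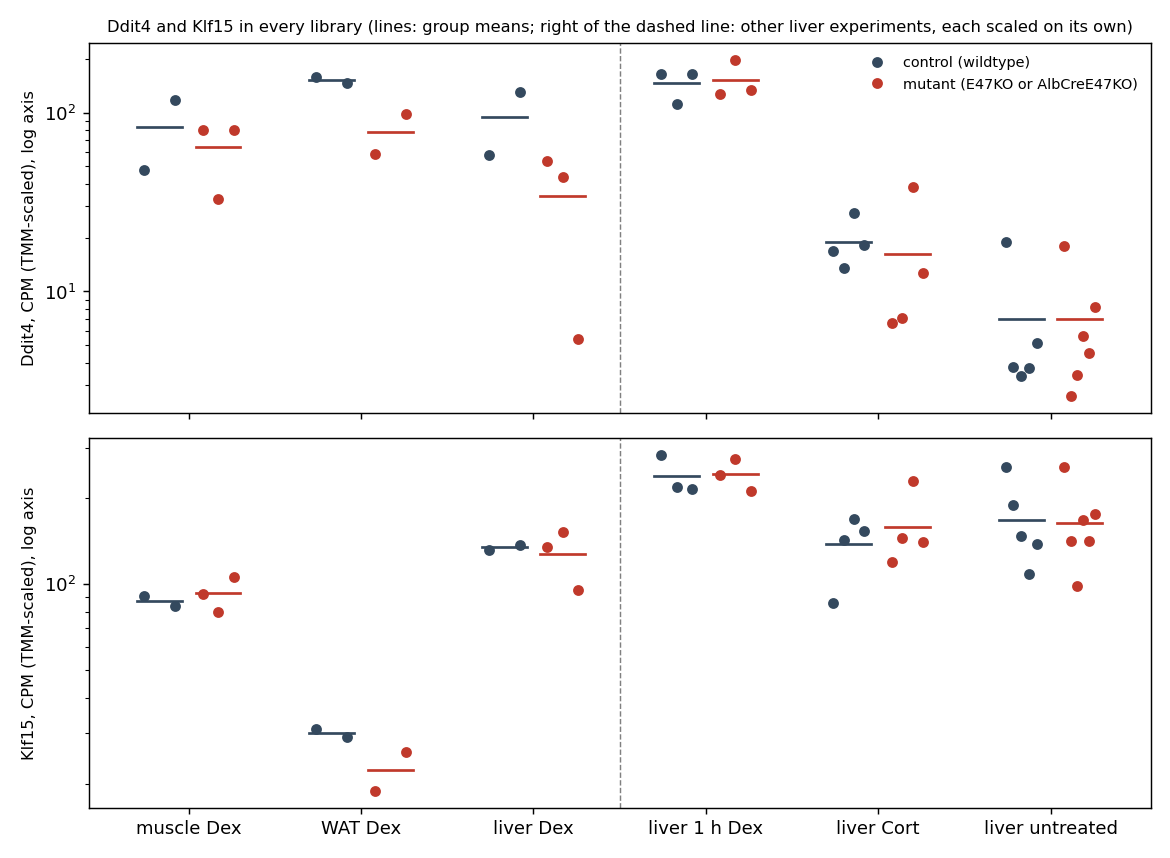
CPM (log axes) of Ddit4 and Klf15 in all 39 libraries by experiment and genotype (points: libraries; lines: group means; the other liver experiments right of the dashed line were scaled within each experiment). Ddit4 lies between 111.2 and 196 CPM 1 hour after Dex and between 2.61 and 18.9 CPM in untreated livers, and the genotypes overlap in both.

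Between genotypes no member was called in these livers. The count was 0 of 8 after Cort (background 0.0274%), 0 of 8 at 1 hour (background 0.0%) and 0 of 8 in untreated mice (background 0.0288%). No member had an unadjusted p below 0.05 after Cort or in untreated mice, in edgeR or DESeq2. At 1 hour, 2 of 8 did in both tools, where 3.7% of all genes did in edgeR. Cblb read 10.6, 11.3 and 8.99 CPM in AlbCreE47KO and 7.95, 7.82 and 6.83 CPM in control livers, and Bnip3 read 208, 203 and 207 against 148, 166 and 192 CPM. All mutant livers lay above all controls for these 2 of 8 members, where 8.58% of all genes did not overlap in either direction. The log2 differences were 0.45 ± 0.14 for Cblb and 0.29 ± 0.11 for Bnip3 (edgeR unadjusted p = 0.0109 and 0.0241, adjusted p = 0.9998 for both).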

How the data were processed

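Gene counts were analysed as deposited by the authors, who aligned reads with STAR 2.4.2a to mm10 (GRCm38) and counted them per gene. The 3-week Dex libraries are labelled unstranded and the other livers stranded, although the Cort livers split evenly between strands; the unstranded count column was used throughout. Entries without a gene (20.8 to 36.8% of reads per library) were left out. Members and gene lists were chosen with earlier results of these data known. Genes passing filterByExpr were tested in edgeR 4.0.16 (TMM, quasi-likelihood, two-sided, Benjamini-Hochberg over all genes tested) under R 4.3.3, each experiment by itself for genotype and all 14 Dex libraries together for tissue and for differences of genotype effects. Dex levels used the joint TMM scaling, and RPKM the union exon length of the GENCODE annotation. Alternatives were size factors, no filter, DESeq2 1.42.0, leaving out each library, replicate numbers as a block, the range of animal numbers, a joint fit, plain totals and the strand column. Named genes were all members, any called list gene, the list gene with the smallest p in muscle and the 2 most abundant per list in the tissue comparisons; likeness used log2 CPM with a prior count of 2. Scripts were tested on simulated data. All 53 pairs of libraries within a group differed beyond counting noise (chi-square over its degrees of freedom, 14.7 to 232), so each was counted once; the number of libraries limits the precision. P-values of the genotype tests within a tissue measure the spread between the mice sampled. The joint fit had no term for the mouse, although 3 mice gave both muscle and liver, so it treated libraries of the same mouse as independent.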

Additional observations from a re-analysis of the deposited data

Results flagged for a closer look

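In untreated livers, 7 values for single libraries stood apart from the rest of their group, as the gap to the next library took up more of the group's range than Dixon's 95% limit; chance flags about 1 in 20 groups, and 38 groups were examined. Groups of 3 or fewer, muscle included, could not be examined this way. Ddit4 was highest in replicate 1 of both genotypes, at 17.8 CPM in E47KO (next 8.20 CPM) and 18.9 CPM in wildtype (next 5.13 CPM). These 2 livers are the only 2 of 11 in the upper range of animal numbers. In the other 9, E47KO ran from 2.61 to 8.20 CPM and wildtype from 3.35 to 5.13 CPM. The part of the number range was not tested. Fbxo30 was lowest at 8.49 CPM in the same E47KO replicate 1, where the next was 13.1 CPM. Trim63 was highest at 0.534 CPM in 1 E47KO liver and 0.546 CPM in 1 wildtype liver, where the next libraries were at 0.187 and 0.110 CPM. Mstn was highest in the same 2 livers as Trim63, at 0.140 and 0.198 CPM, on 5 and 8 counts. The genotype results did not rest on these libraries, since no member was called in untreated livers with or without each library in turn. No member's genotype effect differed past the threshold between muscle and liver or between muscle and WAT, the pairs tested.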

How the results depend on the processing

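No member was called between genotypes in muscle under any alternative. The same held in Dex, Cort, 1 h and untreated liver and for both differences of genotype effect, and in WAT 0 to 2 members were called when libraries were left out in turn. Counts over all genes moved more. Without the filter on low counts they were 37 in muscle, 62 in Dex liver, 6 in WAT, 13 after Cort, 1 at 1 h, 8 in untreated liver, and 12 and 35 for the differences of effect against liver and WAT. With DESeq2 they were 93, 24, 37, 270, 6, 11, 38 and 46 in that order. Leaving out 1 library gave 1 to 8 genes in muscle, 0 to 7 in Dex liver, 0 to 333 in WAT, 1 to 6 after Cort, 0 to 1 at 1 h, 3 to 4 in untreated liver, and 0 to 38 and 0 to 17 for the differences of effect. The replicate block gave 1 gene in muscle, 0 in Dex liver, 29 after Cort and 2 in untreated liver, and it turned Klf15 in Dex liver to 0.091. The numbers pair the samples by name, and the correlations did not settle whether they mean more. Same-numbered libraries deviated together at r above 0.1 in 3 of 4 pairs after Cort (up to 0.717). In untreated liver 3 of 5 did (up to 0.749), at 1 h 2 of 3, in muscle 1 of 2, and in Dex liver and WAT 0. Only 1 of 4 pairs after Cort, 1 of 3 at 1 h and 1 of 5 in untreated liver correlated best with its own number. With 2 wildtype libraries, as in muscle, deviations from the group mean mirror each other, so the check cannot decide there. In WAT no residual degrees of freedom were left for the replicate block. The range of animal numbers as a term gave 4 genes in muscle and 0 in Dex liver, and the joint fit of 3 tissues gave 14 in muscle. The cause was not tested.

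Log2 fold changes of members that changed sign when 1 library was left out ranged, in muscle, from -0.34 to 0.022 for Fbxo32, -0.26 to 0.17 for Trim63, -0.27 to 0.094 for Fbxo31, -0.82 to 0.41 for Ddit4 and -0.54 to 0.31 for Eif4ebp1. In Dex liver they ranged from -0.17 to 0.32 for Fbxo32, -0.089 to 0.20 for Fbxo30 and -0.23 to 0.092 for Klf15, and in WAT from -0.10 to 0.12 for Fbxo30, -0.092 to 0.19 for Eif4ebp1 and -0.29 to 0.048 for Bnip3. None of these was called. Ddit4, muscle against liver, ranged from -0.025 to 0.72, was -0.19 in wildtype libraries alone and -0.072 in the 3 mice with both tissues and the mouse as a replicate block. In wildtype libraries alone, Fbxo31 against liver (0.39) and Eif4ebp1 against WAT (-0.63) were not called. Depth limits Trim63 and Mstn outside muscle, where counts of 0 to 22 per library kept both out of the filtered genotype tests of each whole experiment. Without the filter both were tested in WAT, Cort and untreated liver and Trim63 in Dex liver, and neither was called.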
